A study of Mus musculus with 6 samples.

Results

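Chromatin opening was measured at 10 genes of the Wnt pathway, Axin2, Lef1, Tcf7l1, Tcf7l2, Lgr5, Lgr6, Wnt4, Wnt7b, Wnt10a and Fzd6, of 21853 protein-coding genes. They were chosen by name and not by a measured value, though earlier results of these data were known. They have 17 start windows among the 32529 of all genes, a start window being the 1000 bp either side of an annotated transcription start, with starts closer than 1000 bp joined. Their loci, the gene body plus 50 kb on each side, hold 921 of the 443384 open tiles. These are 500 bp stretches of the genome with at least 5 times the cut sites of the median tile, as a scaled mean over the 6 libraries. A tile can therefore count as open through a single group of libraries.

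Wnt ligands are secreted proteins that bind Frizzled receptors on the cell surface. Without a ligand, a complex built on the Axin scaffolds marks beta-catenin for destruction. With a ligand, beta-catenin reaches the nucleus and acts through the DNA-binding proteins Tcf7, Lef1, Tcf7l1 and Tcf7l2. R-spondins and their receptors Lgr4, Lgr5 and Lgr6 raise the number of Frizzled receptors at the surface. In epithelia the pathway is known for its part in keeping and activating stem cells.

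The measurements are single-nucleus ATAC-seq, in which the Tn5 transposase cuts DNA where chromatin is open. The cells came from the dorsal olfactory epithelium of mice carrying Krt5Cre-ER and a Rosa26 LSL-YFP reporter on both alleles. The Krt5 driver labels horizontal basal cells, the reserve stem cells of this epithelium, together with any descendants they have left, and YFP-positive, propidium iodide-negative cells were sorted. The 3 control libraries are called uninjured, and the 3 libraries collected 24 h after methimazole, a toxicant of the olfactory epithelium, are called injured. Replicate 1 of both groups was 8 weeks old, replicate 2 was 6 weeks old and replicate 3 was 6 to 7 weeks old. Every mouse carried the same transgenes, and the number of animals behind a library is not given in the sources used here.

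Between 420 and 1338 barcodes per library had 2000 or more fragments and were kept, 4476 in all, with 14825320 to 44875242 cut sites per library. The third libraries stood apart. Barcodes in clusters called horizontal basal-like from Krt5, Krt14, Trp63 and other fixed markers were 22.6% of uninjured replicate 3 and 19.03% of injured replicate 3, and 60.5% to 73.7% of the other 4. These shares depend on the naming rule, which was set after the data were seen. Clusters 2 and 9 had horizontal basal as their highest marker list but were left unnamed, since the airway secretory markers Reg3g and, in cluster 2, Bpifa1 were among their 10 leading genes and no basal marker was. They held 1.32%, 1.01% and 27.3% of the uninjured and 17.4%, 17.4% and 29.6% of the injured libraries, in the order of the replicates. With them the shares were 49.9% and 48.7% in the third libraries and 61.5% to 91.1% in the other 4. Uninjured replicate 3 and injured replicate 3 also shared 34 kept barcodes, in each of which 92.9% to 99.0% of the fragments of the shallower copy were identical to the deeper one. Over all libraries 41 barcodes had at least 50% of their fragments in a deeper copy. The summed level of the 8 horizontal basal markers, read over gene bodies in CPM (cut sites scaled to a common total per library), was 618 to 713 in uninjured and 525 to 591 in injured libraries, and that of 6 sustentacular markers was 110 to 119 and 60.0 to 69.3. Neither pair of groups overlapped (exact two-sided permutation p = 0.1, the smallest that 3 libraries against 3 can give; 0.3 adjusted over 15 values). Bowman gland and glia markers did not overlap either, and the other 9 lists did. Cbr2 gave the largest part of the sustentacular sum, 55.2 to 70.2 CPM in uninjured and 30.9 to 42.7 in injured libraries. It was not particular to sustentacular cells, with 84.7 CPM in the basal-like cluster 4 and 73.1 in the sustentacular-like cluster. Cyp2g1 and Cyp1a2 overlapped between the groups, and Ermn, Cyp2a5 and Muc2 did not. The part of these lists in the results was not tested. In summed libraries fewer cells of a type cannot be told apart from less open chromatin per cell. Of the basal markers Icam1 had 133, 90.6 and 91.7 CPM before injury and 45.8, 44.1 and 52.7 after it. Krt15, Itgb4 and Itga6 did not overlap either, while Krt5, Krt14, Trp63 and Col17a1 did. Icam1 had 154 and 121 CPM in the mostly uninjured basal-like clusters 4 and 5. It had 42.0, 48.6 and 43.7 in the mostly injured basal-like clusters 1, 3 and 7, and 89.3 in cluster 2. The sustentacular-like cluster had 4, 67 and 32 barcodes in the uninjured and 0, 0 and 1 in the injured libraries. Named horizontal basal-like barcodes made up 50.7% ± 24.7 of the kept ones before injury and 51.1% ± 28.5 after it (mean ± SD, n = 3 each). Without the repeated barcodes the counts of called member start windows (1 higher and 2 lower) and member tiles (27 and 11) were the same as with them. The same 3 member start windows were called without the third libraries and none of the other 14. Values without those libraries are given for the called starts, for starts at which a replicate 3 library stands apart, and for the counts.

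The sequences that follow belong to the open regions on which the results turn. Each is 300 bases of GRCm38, centred on the 50 bp bin, counted from the left end of the called stretch, with the most cut sites in the group where the region is more open. Capitals mark matches to TGANTCA, the motif of AP-1 (Fos and Jun dimers), or to CTTTGAT, the motif of the TCF and LEF proteins, each searched on both strands. The 2 motifs can share bases, and each was counted on its own. The first 5 regions were more open after injury and the last, in Lgr5, was less open.
Lgr6 intron, chr1:135017026-135017325, plus strand: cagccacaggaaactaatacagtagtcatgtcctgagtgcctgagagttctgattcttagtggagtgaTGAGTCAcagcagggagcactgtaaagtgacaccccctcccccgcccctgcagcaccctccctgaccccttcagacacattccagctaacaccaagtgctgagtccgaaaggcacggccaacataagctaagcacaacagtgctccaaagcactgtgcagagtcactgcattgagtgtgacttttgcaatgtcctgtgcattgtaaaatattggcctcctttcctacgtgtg
Wnt7b intron, chr15:85551176-85551475, plus strand: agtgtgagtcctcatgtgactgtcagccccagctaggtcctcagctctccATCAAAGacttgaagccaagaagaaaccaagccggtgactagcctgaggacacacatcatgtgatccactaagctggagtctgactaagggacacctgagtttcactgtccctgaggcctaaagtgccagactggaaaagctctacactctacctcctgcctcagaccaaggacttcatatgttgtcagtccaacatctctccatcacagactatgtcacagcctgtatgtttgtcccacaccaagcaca
Tcf7l2 upstream region, chr19:55712776-55713075, plus strand: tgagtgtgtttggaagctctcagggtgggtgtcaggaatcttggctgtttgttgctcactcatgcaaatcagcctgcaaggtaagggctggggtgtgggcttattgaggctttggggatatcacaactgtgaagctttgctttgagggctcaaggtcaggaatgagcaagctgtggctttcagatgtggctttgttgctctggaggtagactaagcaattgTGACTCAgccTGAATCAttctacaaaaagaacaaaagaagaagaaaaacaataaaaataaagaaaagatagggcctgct
Axin2 upstream region, chr11:108898126-108898425, plus strand: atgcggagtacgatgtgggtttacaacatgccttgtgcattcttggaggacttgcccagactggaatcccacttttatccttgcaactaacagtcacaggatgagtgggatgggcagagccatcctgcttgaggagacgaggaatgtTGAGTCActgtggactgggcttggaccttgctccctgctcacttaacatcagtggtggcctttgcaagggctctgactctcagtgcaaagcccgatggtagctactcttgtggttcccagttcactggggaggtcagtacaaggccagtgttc
Lef1 intron, chr3:131143626-131143925, plus strand: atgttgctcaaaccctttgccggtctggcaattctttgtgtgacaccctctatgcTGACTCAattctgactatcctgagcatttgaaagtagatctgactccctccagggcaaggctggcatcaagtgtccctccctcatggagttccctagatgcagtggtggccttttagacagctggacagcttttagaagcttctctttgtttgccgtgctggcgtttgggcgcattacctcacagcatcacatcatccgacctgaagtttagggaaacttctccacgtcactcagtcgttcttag
Lgr5 intron, chr10:115561276-115561575, plus strand: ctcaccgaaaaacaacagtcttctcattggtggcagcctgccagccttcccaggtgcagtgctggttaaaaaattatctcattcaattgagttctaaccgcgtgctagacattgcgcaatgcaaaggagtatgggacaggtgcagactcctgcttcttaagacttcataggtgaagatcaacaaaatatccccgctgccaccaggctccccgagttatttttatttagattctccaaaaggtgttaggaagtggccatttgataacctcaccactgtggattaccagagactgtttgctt
AP-1 matches stood in the printed bases of the Lgr6, Tcf7l2, Axin2 and Lef1 regions, with 2 in the Tcf7l2 region. Centring on the busiest bin was chosen after seeing the data. The 300 bases at the centre of the called tile with the smallest p held 0 matches in Lgr6 and Tcf7l2. They held 1 each in Axin2 and Lef1. The Wnt7b region held 1 TCF/LEF match and no AP-1 match. The Lgr5 region held neither.

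The first comparison asked whether the starts of these genes were more or less open after injury. One of 17 start windows was more open, that of the short second start of Lgr6. Lgr6 is a receptor for R-spondins that marks stem cells of the skin. Over the injured libraries 30 cut sites lay within 250 bp of this start and 867 lay 250 to 1249 bp downstream. With windows of 500 bp either side it was not called (adjusted p = 0.110). Another 2 of the 17 windows were less open, those of the main starts of Tcf7l2 and Wnt4. Among all 24178 start windows tested, 2.48% were called higher and 2.36% lower, 4.83% in either direction, at an adjusted p under 0.05. The members' shares were 5.88% and 11.8%, which stand for 1 and 2 windows. All 17 start windows passed the filter on low counts. The groups did not overlap in 4 of the 17, against 27.9% of all start windows. Injured libraries had 65.1% to 72.7% of their cut sites in open tiles and uninjured ones 73.9% to 77.7% (exact two-sided permutation p = 0.1; 0.3 adjusted over 15 values). The fits were scaled by TMM factors, under which the median log2 change of all start windows was 0.01, and log2 changes below are on that scale. With total cut sites alone that median was -0.24 and the members' counts were 1 higher and 4 lower, 23.5% lower against 28.6% of all start windows. TMM factors taken from 10 kb bins gave a median of -0.50 and counts of 1 and 8, 47.1% lower against 45.1% of all.

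**Figure D1:**
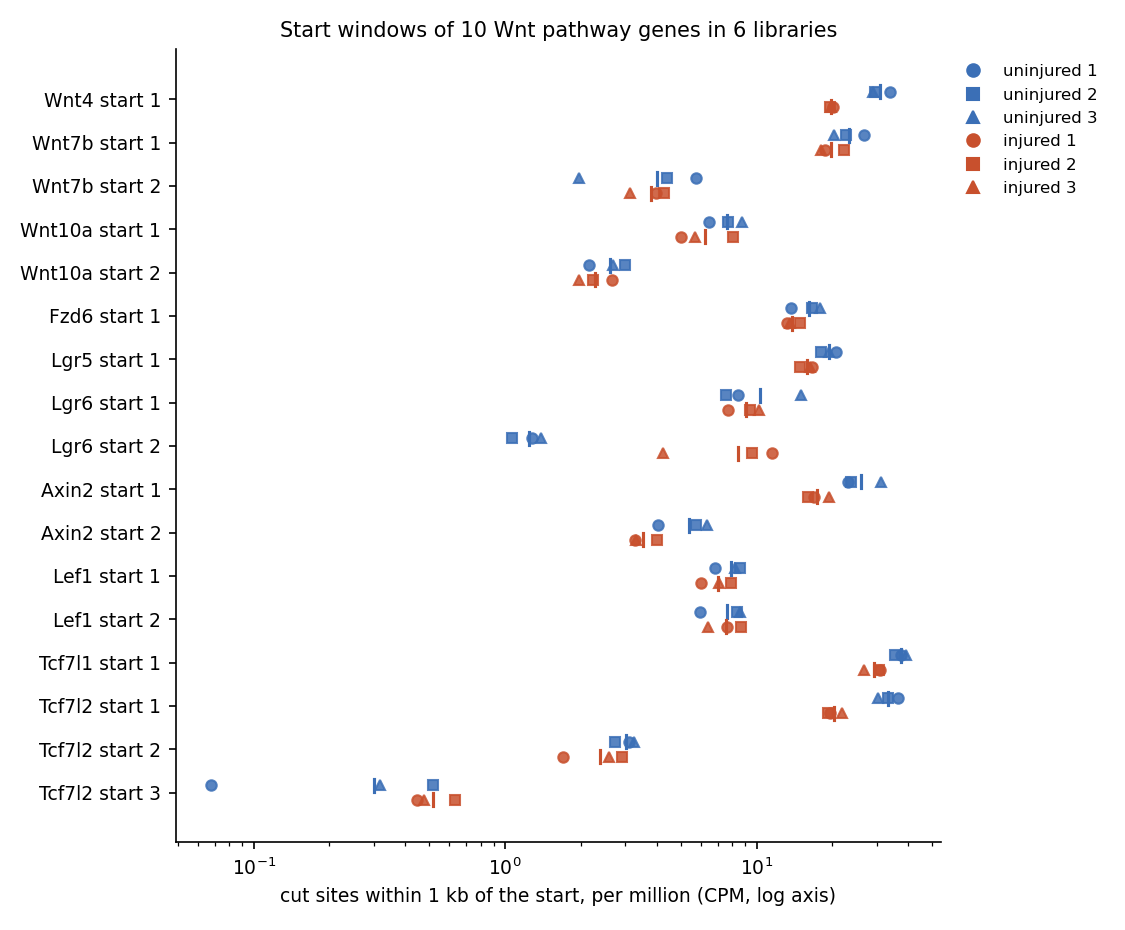
Cut sites within 1 kb of each start of the 10 genes, in CPM on a log axis, 1 point per library and a vertical bar at the mean of each group. The second start of Lgr6 lies between 1.07 and 1.39 CPM in the uninjured and between 4.26 and 11.5 in the injured libraries; these plain CPM values are not yet scaled by the TMM factors.

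All windows have the same width, so levels can be set beside each other. The order by mean CPM over the 6 libraries was Tcf7l1 (33.4), Tcf7l2 (26.8), Wnt4 (25.3), Axin2 (21.7), Wnt7b (21.5), Lgr5 (17.6), Fzd6 (14.99), Lgr6 (9.72), Lef1 (7.61) and Wnt10a (6.95), each at its most open start. The median of all tested start windows was 9.32 CPM. The ranges of every pair of neighbours in this order overlapped over the 6 libraries. Tcf7l1, a TCF protein that mostly represses its targets, ran from 26.7 to 39.3 CPM and so lay above every library's value of Lgr5, which ran from 14.9 to 20.7.

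Of the ligands, Wnt4 is best known for its part in kidney and ovary development. Its start on chromosome 4 at position 137277489 had 34.1, 29.4 and 28.9 CPM before injury and 20.1, 19.6 and 19.7 after it, here and below in the order of the replicates. Every injured library lay below every uninjured one, also after scaling. The window fell by 0.38 on the log2 scale (SE 0.09, adjusted p = 0.0387). Without the third libraries the log2 change was -0.36 (adjusted p = 0.0378). The call was lost when any 1 library other than uninjured replicate 3 was left out, with log2 changes from -0.32 to -0.41 and adjusted p from 0.0626 to 0.144. It was also lost with the 5′-most start alone (adjusted p = 0.0581), with barcodes of at least 20% of cut sites in open tiles (0.0642) and without doublet calls (0.0957). In horizontal basal-like barcodes alone the level was 34.9 to 42.2 CPM in uninjured and 22.1 to 24.5 in injured libraries (log2 change -0.44, adjusted p = 0.00325). With clusters 2 and 9 added to them the call was lost (log2 change -0.28, adjusted p = 0.122). Clusters 4 and 5 hold most of these barcodes in the uninjured libraries and clusters 1, 3 and 7 in the injured ones. The clusters were made from the same cut sites, and each of these comes mostly from a single group. The p-values in basal-like barcodes, here and below, are therefore no independent tests. By cluster, Wnt4 had 42.5 and 33.4 CPM in clusters 4 and 5, and 22.5, 23.3 and 23.5 in clusters 1, 3 and 7. It had 29.8 in the unnamed cluster 2, which is mostly injured, and 31.6 in cluster 9. It was 3.29 in the immature neuron-like cluster and 2.83 in the mature olfactory sensory neuron-like one.

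Wnt7b, a ligand known from lung and skin development, was not called at either start. Its first start ran from 20.3 to 26.8 CPM in uninjured and from 18.1 to 22.2 in injured libraries, and the groups overlapped (log2 change 0.02, SE 0.13, adjusted p = 0.942). Wnt10a, a ligand of teeth, hair and sweat glands, ran from 6.48 to 8.77 and from 4.99 to 8.06 CPM at its first start (log2 change -0.05, SE 0.23). The receptor Fzd6, which patterns hair through planar cell polarity, ran from 13.8 to 17.9 and from 13.2 to 14.9 CPM (log2 change 0.03, SE 0.13). With the factors from 10 kb bins, which lower the median of all start windows to -0.50, the log2 changes of Wnt7b and Fzd6 were -0.51 and -0.48. A missed threshold does not show that these starts did not change.

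Lgr6 has its long transcript, Lgr6-201, from a start on chromosome 1 at 135105276 of the minus strand, and a short one, Lgr6-202, from 135017779, inside an intron of the long one. The short start had 19, 35 and 44 cut sites in the uninjured and 515, 228 and 152 in the injured libraries. In CPM these were 1.28, 1.07 and 1.39 before injury and 11.5, 9.63 and 4.26 after it. The groups did not overlap, and injured replicate 3 was the lowest of the injured libraries. The window was higher by a log2 of 3.04 (SE 0.38, adjusted p = 0.00222). It was called in each of the 6 fits that left out 1 library (log2 changes 2.73 to 3.39) and without the third libraries (3.50). In horizontal basal-like barcodes the short start had 1.26, 0.708 and 0.237 CPM before injury and 15.05, 16.1 and 11.4 after it. There injured replicate 3 stood near the other injured libraries (log2 change 4.42, SE 0.30, adjusted p = 1.55e-19), with the clusters as divided above. The clusters were made from the same cut sites, so that p is no independent test. The basal-like set leaves out cluster 2, which is mostly injured and had 4.09 CPM at the short start. With clusters 2 and 9 added the log2 change was 3.42 (adjusted p = 5.3e-05).

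Few cut sites lay at the short start itself. Over the injured libraries 30 cut sites lay within 250 bp of it and 867 lay 250 to 1249 bp downstream, a range that runs past the edge of the tested window at 1000 bp, with the most in the 50 bp from 700 bp on. The uninjured libraries had 11 and 67. The same intronic stretch, chr1:135016501-135017500, was called among the tiles (log2 change 3.24, SE 0.45, adjusted p = 0.00401), and the Lgr6 sequence printed above lies in it and holds the bases of that bin. With windows of 500 bp either side, which leave most of this stretch out, the short start's log2 change was 1.93 (adjusted p = 0.110).

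**Figure D2:**
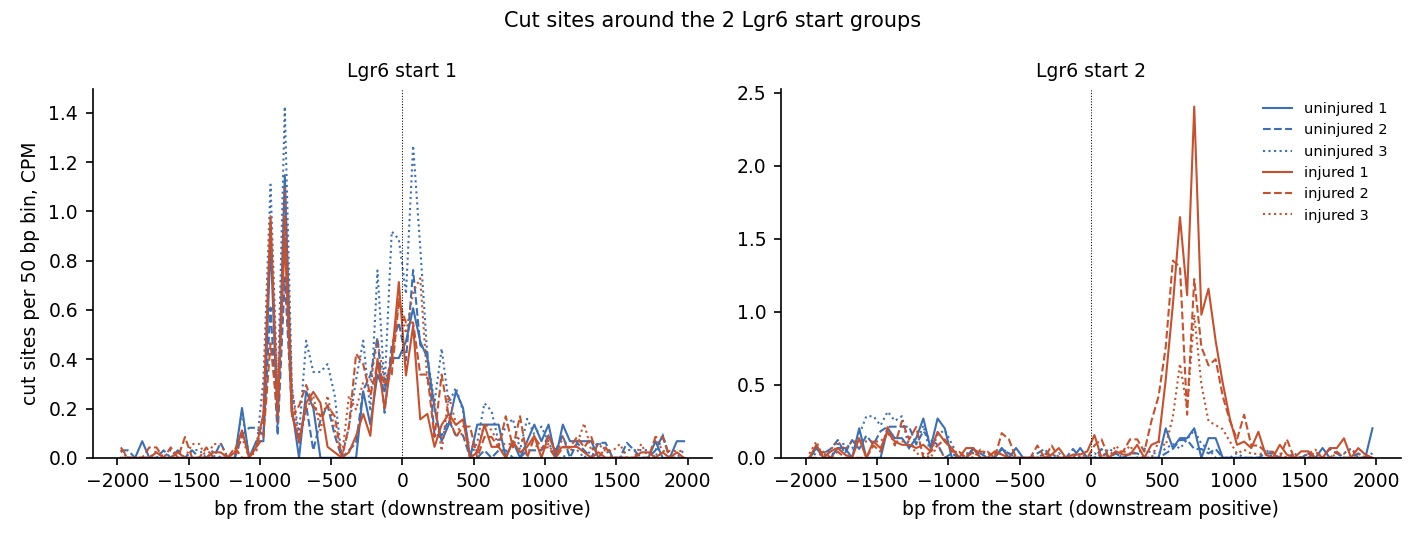
Cut sites per 50 bp bin in CPM against the distance from the 2 Lgr6 starts, 1 line per library. At the short start (right) the injured libraries peak about 700 bp downstream, in the intron; at the long start (left) the groups overlap, with uninjured replicate 3 highest.

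The long start of Lgr6 was not called. It had 8.43, 7.59 and 15.04 CPM before injury and 7.69, 9.37 and 10.2 after it, in the order of the replicates (log2 change 0.05, SE 0.23). Uninjured replicate 3 was the highest library, and the groups overlapped. Without the third libraries the log2 change was 0.40 (adjusted p = 0.203). By cluster the 2 starts had different orders. The long start was highest in the unnamed clusters 6 (22.4 CPM), 9 (16.01) and 2 (14.8), whose leading genes include Reg3g, Depp1 and F2, and 5.64 to 8.11 in the horizontal basal-like clusters. Cluster 9 held 167 of its 188 barcodes from uninjured replicate 3. The window of the short start, which takes in the intronic stretch, was highest in the basal-like clusters of the injured libraries. It had 19.8 CPM in cluster 7, 14.8 in cluster 1 and 11.3 in cluster 3, and 0.453 and 1.02 in clusters 4 and 5. Clusters were made from the same cut sites, so these levels are a description.

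**Figure D3:**
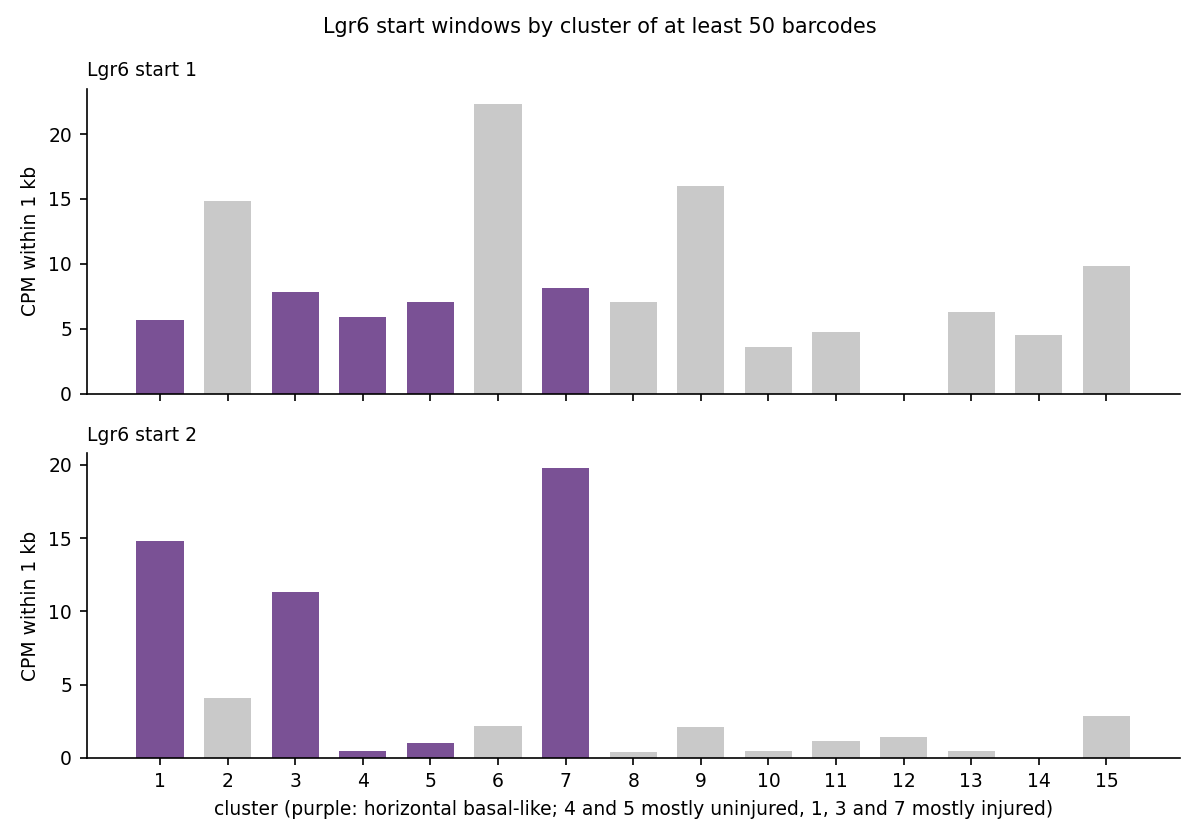
CPM within 1 kb of the 2 Lgr6 starts in clusters of at least 50 barcodes, with horizontal basal-like clusters in purple. The window of the long start is highest in cluster 6 at 22.4 CPM. That of the short start, which takes in the intronic stretch downstream, is highest in cluster 7 at 19.8 CPM.

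The short start of Lgr6 was set beside 14240 start windows of other genes with a mean of at least 5 CPM. By Pearson r of log2 CPM over the 6 libraries, the most alike were start 3 of Rcc1 (r = 0.997), start 2 of Duoxa1 (0.996) and start 1 of Naa80 (0.996). All share the same libraries and the same division into 2 groups.

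Lgr5, the R-spondin receptor that marks intestinal stem cells, had 20.7, 18.0 and 19.4 CPM at its start before injury and 16.5, 14.9 and 16.3 after it. After scaling the groups overlapped (log2 change -0.02, SE 0.10). An intronic stretch 26029 bp downstream of the start, chr10:115561001-115562000, was less open after injury. The nearest start was that of A930009A15Rik, at 8235 bp. The stretch cannot be assigned to either gene from these data. Its most significant tile had 13.6, 11.8 and 10.2 CPM before injury and 3.94, 3.76 and 5.66 after it, with no overlap. It fell by 1.32 on the log2 scale (SE 0.18, adjusted p = 0.00365), was called in all 6 fits that left out 1 library, and fell by 2.50 in horizontal basal-like barcodes. The busiest bases of the whole stretch are the Lgr5 sequence above, most of which lies outside the most significant tile.

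Axin2 is a scaffold of the destruction complex and a target of the pathway that feeds back on it. Its main start, on chromosome 11 at 108920349, had 23.1, 23.7 and 31.3 CPM before injury and 17.0, 15.96 and 19.4 after it. The groups did not overlap, but the change did not pass the test (log2 change -0.33, SE 0.12, adjusted p = 0.116). Without the third libraries it was -0.20 (adjusted p = 0.317). With the replicate number as a block it was -0.32 (adjusted p = 0.0408). The numbers were not taken as pairs, since no label says that they mark a shared litter, batch or day.

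The nuclear factor Tcf7l2, the main TCF protein of the intestinal epithelium, had 36.6, 33.2 and 30.3 CPM at its main start on chromosome 19 at 55741820 before injury. After injury it had 19.5, 19.3 and 21.9. The groups did not overlap, and the window fell by 0.47 on the log2 scale (SE 0.09, adjusted p = 0.0134). Without the third libraries it fell by 0.54 (adjusted p = 0.00157). With 1 of replicates 1 or 2 of either group left out the log2 change was -0.42 to -0.46 and the adjusted p 0.0555 to 0.0703. In horizontal basal-like barcodes the level was 25.8 to 41.8 CPM before and 19.8 to 25.1 after injury (log2 change -0.37, adjusted p = 0.0346), and with clusters 2 and 9 added the log2 change was -0.42 (adjusted p = 0.0444). The 2 other starts of Tcf7l2, inside the gene, were not called.

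Tcf7l1 had 35.5 to 39.3 CPM before and 26.7 to 30.9 after injury, which overlapped once scaled (log2 change -0.09, SE 0.10). Lef1, a factor of hair and lymphoid development, had 6.81 to 8.59 and 6.02 to 7.90 CPM at its first start (log2 change 0.07, SE 0.20) and was not called at either. In horizontal basal-like barcodes 1 of 16 tested member start windows was called higher and 2 lower, against 12% and 9.30% of all start windows there. These were again the short start of Lgr6, and the main starts of Tcf7l2 and Wnt4. With clusters 2 and 9 added 1 was higher and 1 lower, against 4.52% and 2.68% of all.

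The second comparison asked where in the loci chromatin changed. Of 834 tested tiles in the 10 loci 27 were called higher and 11 lower after injury, 3.24% and 1.32%, against 4.84% and 1.66% (6.51% in either direction) of all 397121 tested tiles. Both shares were below those of all tiles. The 27 higher tiles formed 21 stretches and the 11 lower ones 9. Inside the gene bodies lay 16 of the higher and 8 of the lower tiles. Without the third libraries 64 of 772 tested tiles were called higher and 34 lower, against 11.8% and 5.32% of all tiles, and each of the 30 leading tiles, 1 per stretch, was called in the same direction. Of these 30 tiles 6 were called whichever 1 library was left out. The calls lost were 16 without uninjured replicate 1, 16 without uninjured replicate 2, 6 without uninjured replicate 3, 18 without injured replicate 1, 22 without injured replicate 2 and 3 without injured replicate 3. With total cut sites alone the counts over all member tiles were 26 higher and 19 lower, 3.12% and 2.28% against 4.48% and 2.48% of all tiles. With factors from 10 kb bins they were 20 and 41, 2.40% and 4.92% against 3.33% and 5.03%. In horizontal basal-like barcodes 70 of 392 were called higher and 51 lower, against 23.4% and 15.4%. With clusters 2 and 9 added these were 45 and 18 of 548, against 10.5% and 4.13%.

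**Figure D4:**
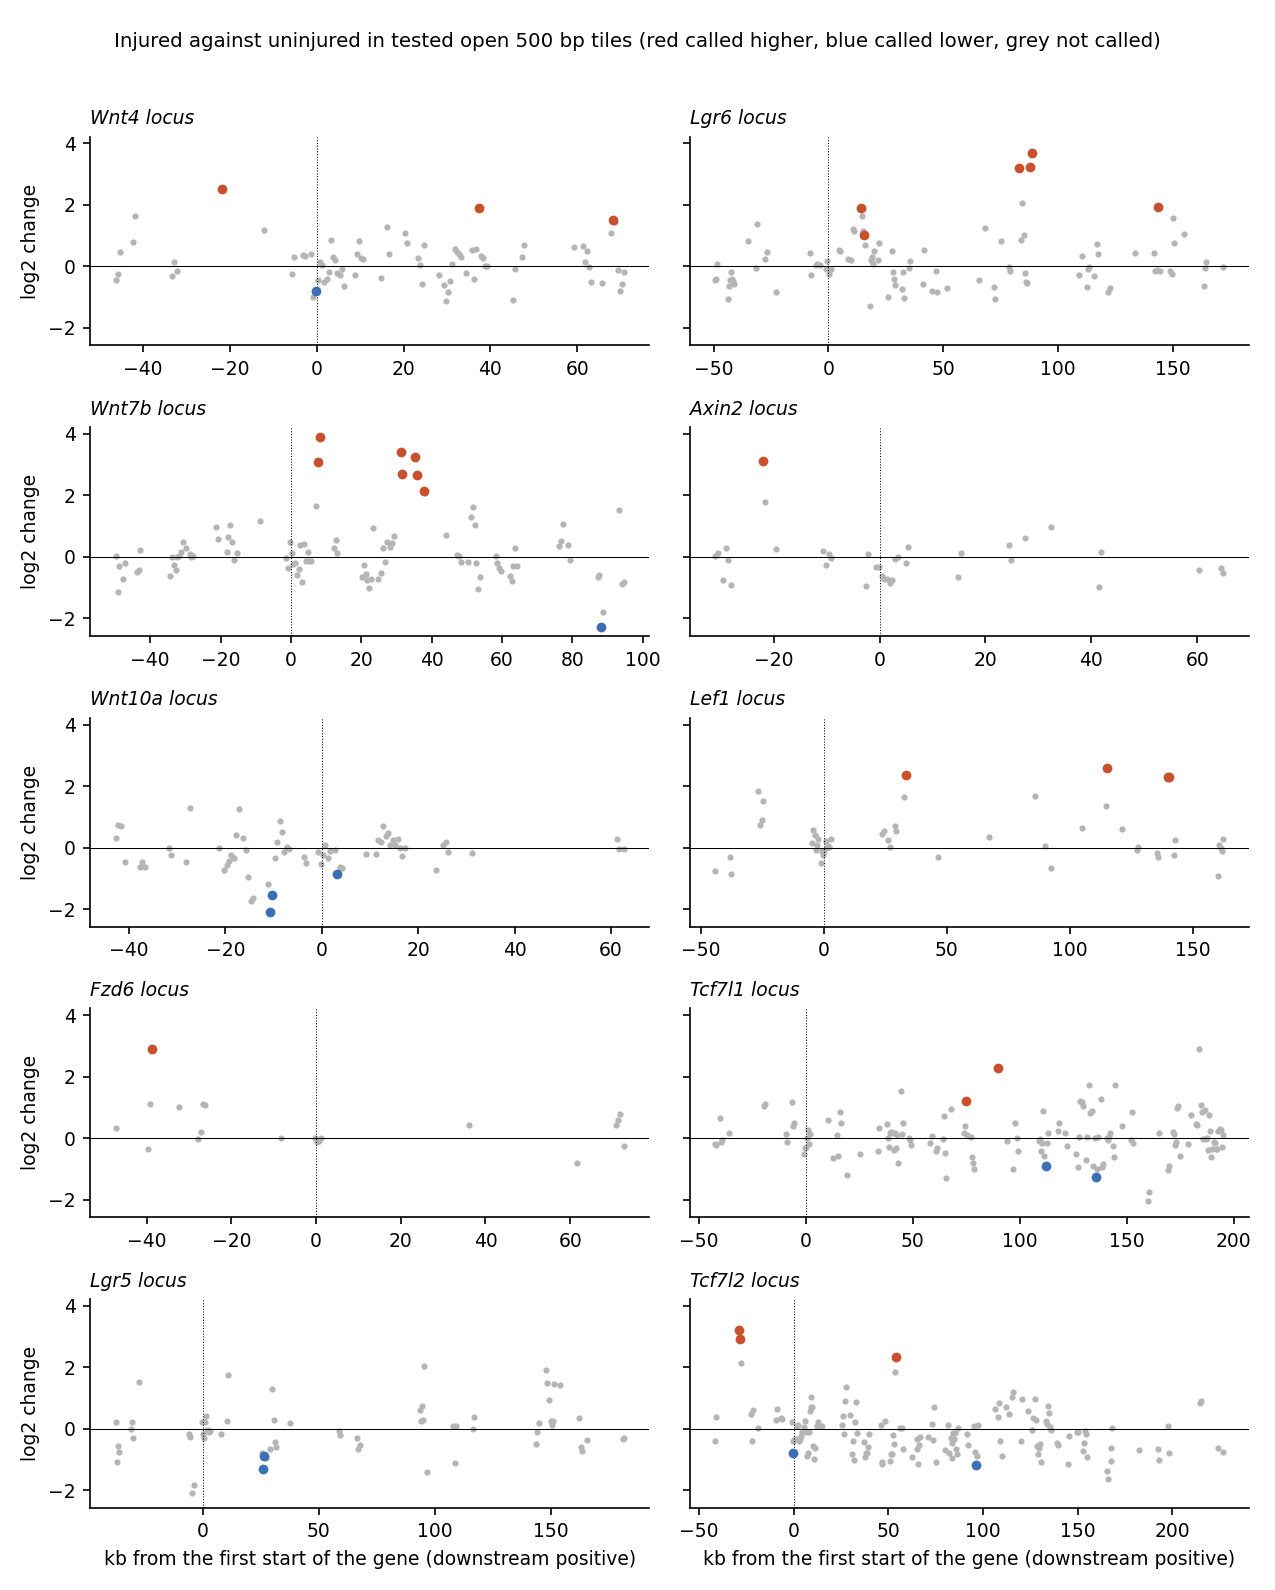
Log2 change after injury of each tested 500 bp tile against its distance from the first start of the gene, 1 panel per locus. Called tiles are red (27 higher) or blue (11 lower); the Wnt7b gene body holds 7 of the red points and the starts of Wnt4 and Tcf7l2 a blue one each.

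Wnt7b had 7 higher tiles in 4 intronic stretches, 6.80% of its 103 tested tiles, while its starts were not called. In Lef1 the share was 7.69%, 4 of 52. The leading stretch, chr15:85550501-85551500, lies 31222 bp downstream of the first start. Its best tile had 0.270, 0.183 and 0.412 CPM before injury and 3.25, 3.34 and 1.90 after it, without overlap (log2 change 3.41, SE 0.46, adjusted p = 0.00370). The stretch chr15:85574001-85575000, 7722 bp into the gene, had 0.877, 1.16 and 0.602 CPM in its best tile before injury and 9.34, 7.68 and 3.22 after it (log2 change 3.08). A further one, chr15:85546501-85547500, had a log2 change of 3.27. Injured replicate 3 was the lowest injured library in all 4. These 3 leading stretches were called whichever 1 library was left out, and the fourth, with a log2 change of 2.13, in 1 of those 6 fits (adjusted p up to 0.151). The fourth was also lost with factors from 10 kb bins (adjusted p = 0.0516).

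In the Lgr6 locus 6 tiles in 5 stretches were higher. Besides the stretch described above they were a tile overlapping an exon at chr1:135022001-135022500 (log2 change 3.20), tiles 14025 and 15525 bp into the gene (1.90 and 1.02), and a tile beyond the gene, 814 bp from the nearest start, that of Ube2t (1.92). A tile near the start of a neighbouring gene cannot be assigned to Lgr6 from these data. Of the 6 fits that left out 1 library the exon tile was called in 3 (adjusted p up to 0.107), the tile 14025 bp in was called in 5, all but that without injured replicate 2 (0.0573), the tile 15525 bp in in 2 (0.146) and the tile near Ube2t in 1 (0.184). The tile 15525 bp in was also lost with factors from 10 kb bins and without doublet calls (up to 0.165), and the one near Ube2t with factors from 10 kb bins (0.0629).

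Around Tcf7l2 the changes went both ways. A stretch 29069 bp upstream, chr19:55712501-55713500, had 0.337, 0.701 and 0.443 CPM in its best tile before injury and 6.15, 4.56 and 2.24 after it, without overlap (log2 change 3.21, SE 0.48, adjusted p = 0.00479). It was called whichever 1 library was left out. The 2 AP-1 matches printed above lie in this stretch, and its best tile holds none in full. An intronic tile 53931 bp into the gene was also higher (2.33), a call lost without injured replicate 1 or 2 (adjusted p up to 0.0915). The tile at the main start, 23.2, 19.4 and 19.7 CPM before and 9.72, 11.2 and 12.9 after injury, was lower (log2 change -0.78, adjusted p = 0.00647), as was an intronic tile 96431 bp in (-1.17). The tile at the start was not called without uninjured replicate 1 (adjusted p = 0.0545). The lower intronic tile was called in none of the 6 fits that left out 1 library (adjusted p 0.0578 to 0.144). It was also lost with barcodes of 5000 or more fragments, with at least 20% of cut sites in open tiles and without doublet calls (up to 0.0877).

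Axin2 had 1 called tile, 22098 bp upstream of its start at chr11:108898001-108898500. It had 0.405, 0.183 and 0.0950 CPM before injury and 2.27, 1.65 and 0.980 after it (log2 change 3.12, SE 0.60, adjusted p = 0.0128), and the groups did not overlap. The call rests on 6, 6 and 3 cut sites in the uninjured and 102, 39 and 35 in the injured libraries. Leaving out replicate 2 of either group or replicate 1 of the injured group ended the call, with an adjusted p of up to 0.0669.

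Lef1 had 4 higher tiles. The one with the smallest p lies in an intron at chr3:131143501-131144000, 33280 bp from the first start, with 0.675, 0.549 and 0.697 CPM before injury and 4.81, 2.15 and 1.99 after it (log2 change 2.37, SE 0.45, adjusted p = 0.0117). It was lost without injured replicate 1, the highest library (adjusted p = 0.0626). The others lay beyond the gene, 1 between genes (2.57) and 2 in an intron of the neighbour Hadh (2.28). These calls were kept in 2 and 3 of the 6 fits that left out 1 library. Tcf7l1 had 2 higher intronic tiles (2.27 and 1.21) and 2 lower ones (-1.25 and -0.90). The calls of the 2 higher tiles and of the tile at -0.90 were kept in 2, 1 and 1 of those fits. The tile at 1.21 was also lost with factors from 10 kb bins (adjusted p = 0.0921). The tile at -0.90 was also lost with barcodes of 5000 or more fragments, with at least 20% of cut sites in open tiles and with clusters 2 and 9 as basal (up to 0.0971). The lower tile at chr6:72653501-72654000 had 11.2, 9.66 and 6.62 CPM before and 3.32, 2.87 and 4.54 after injury, without overlap. Leaving out replicate 1 of the uninjured group or replicate 2 of either group ended its call (adjusted p up to 0.0766). Its nearest start was that of Tgoln1, at 36751 bp, against 135503 bp to the first start of Tcf7l1. The tiles at -0.90 and 2.27 were also nearest to Tgoln1.

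In the Wnt4 locus the tile at the start was lower, with 17.4, 15.02 and 14.8 CPM before and 8.11, 8.23 and 9.02 after injury (log2 change -0.79, adjusted p = 0.00761). That call was lost without uninjured replicate 1 or injured replicate 2 (adjusted p up to 0.0518). Another 3 tiles away from it were higher, 21738 bp upstream (2.50), 37262 bp downstream (1.90) and in an intron of the neighbour Cdc42 (1.52). These were called in 5, 1 and 3 of the 6 fits that left out 1 library, and the second was also lost with total cut sites and with factors from 10 kb bins (adjusted p up to 0.0910). In the Wnt10a locus 3 tiles were lower. A pair of them in an intron of the neighbouring ligand gene Wnt6, chr1:74780501-74781500, had 6.21, 6.19 and 3.39 CPM in the best tile before injury and 1.56, 0.887 and 0.868 after it (log2 change -2.10, SE 0.37, adjusted p = 0.00870). Without injured replicate 2 the adjusted p was 0.0648. The remaining one, in an intron of Wnt10a, fell by 0.85; it was called in 1 of the 6 fits that left out 1 library (adjusted p up to 0.242) and lost under 3 other choices (up to 0.0583). The single called tile of the Fzd6 locus, 38783 bp upstream and nearest to the start of Baalc at 33342 bp, was higher (2.89). It was called in 1 of those 6 fits (adjusted p up to 0.1696) and lost with factors from 10 kb bins and without doublet calls. The single lower tile of the Wnt7b locus overlapped an exon of the neighbour 7530416G11Rik (-2.26) and was called in 2 of them. The 2 called tiles of the Lgr5 locus are the stretch described above.

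The most open tile of each locus was called lower in Tcf7l2 and Wnt4, at the gene's own start, and was not called in the other 8 loci. In Axin2 and Fzd6 it also lay at the own start, and in Lgr5 in an intron. In Lef1, Lgr6 and Tcf7l1 it overlapped an exon of a neighbour, Hadh, Ube2t or Tgoln1.

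Sequence was not used to choose the tiles. TGANTCA stood in 17 of the 27 higher member tiles (63.0%) and in 2 of the 11 lower ones (18.2%). It stood in 18.1% of all tested tiles of the 10 loci. Over the genome it stood in 20.3% of tested tiles, 61.0% of those called higher and 7.12% of those called lower, and the share in the members' higher tiles was near that in all higher tiles. CTTTGAT stood in 2 of the 27 higher (7.41%) and none of the 11 lower member tiles, and in 7.25% of all tested tiles and 7.34% of those called higher. A match is a description of letters and not a bound site.

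The rest of the pathway was read from a list of 93 genes with 130 start windows, of which 126 were tested. Of these 3 were called higher and 6 lower, against 2.48% and 2.36% of all start windows, and the median log2 change was -0.06 against 0.01. Outside the 10 members 2 of 109 were higher and 4 lower. With total cut sites alone the list's counts were 3 higher and 51 lower, 40.5% lower against 28.6% of all start windows. With factors from 10 kb bins they were 2 and 69, 54.8% lower against 45.1%. Without the third libraries they were 5 and 15, against 6.00% and 4.68% of all.

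Among ligands 2 of 25 start windows were called, both lower. These were Wnt4 and Wnt3a, a ligand of the beta-catenin branch, which had 18.8, 16.8 and 14.8 CPM before and 9.27, 9.16 and 7.96 after injury (log2 change -0.67, SE 0.15, adjusted p = 0.0229). edgeR called none of 16 windows of Frizzled and other receptors and none of 16 windows of secreted and membrane inhibitors. The unadjusted p was under 0.05 in 3 and 5 of them, and DESeq2 called 1 and 3. In ligands the unadjusted count was 4 of 25 and in the R-spondin axis 2 of 13. It was 12 of 23 for cytoplasmic components and 7 of 20 for nuclear factors. No share of all start windows is set beside these counts, so they are not read as more or fewer than elsewhere. In the R-spondin axis the window of the short Lgr6 start, with its intronic stretch, was the 1 call of 13.

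Of 23 windows of cytoplasmic components 2 were lower, Dvl2, which relays the receptor signal, and Tnks2, a tankyrase that marks Axin for degradation. Dvl2 fell by 0.49 on the log2 scale (adjusted p = 0.0463) and Tnks2 fell by 0.34 (adjusted p = 0.0456). The median of this group was -0.19. Of 20 windows of nuclear factors Tcf7l2 and the third start of Bcl9l, a beta-catenin coactivator, were lower, Bcl9l by a log2 change of -0.53 (adjusted p = 0.0121). The second start of Tle1, a Groucho-type corepressor, was higher, with 2.43, 1.22 and 1.55 CPM before and 8.11, 7.64 and 3.08 after injury (log2 change 2.18, SE 0.40, adjusted p = 0.0124). Of 5 windows of target genes Cd44, an adhesion receptor, was higher (log2 change 0.70, adjusted p = 0.0160). The windows of the targets Sp5, Ccnd1 and Myc were not called.

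**Figure D5:**
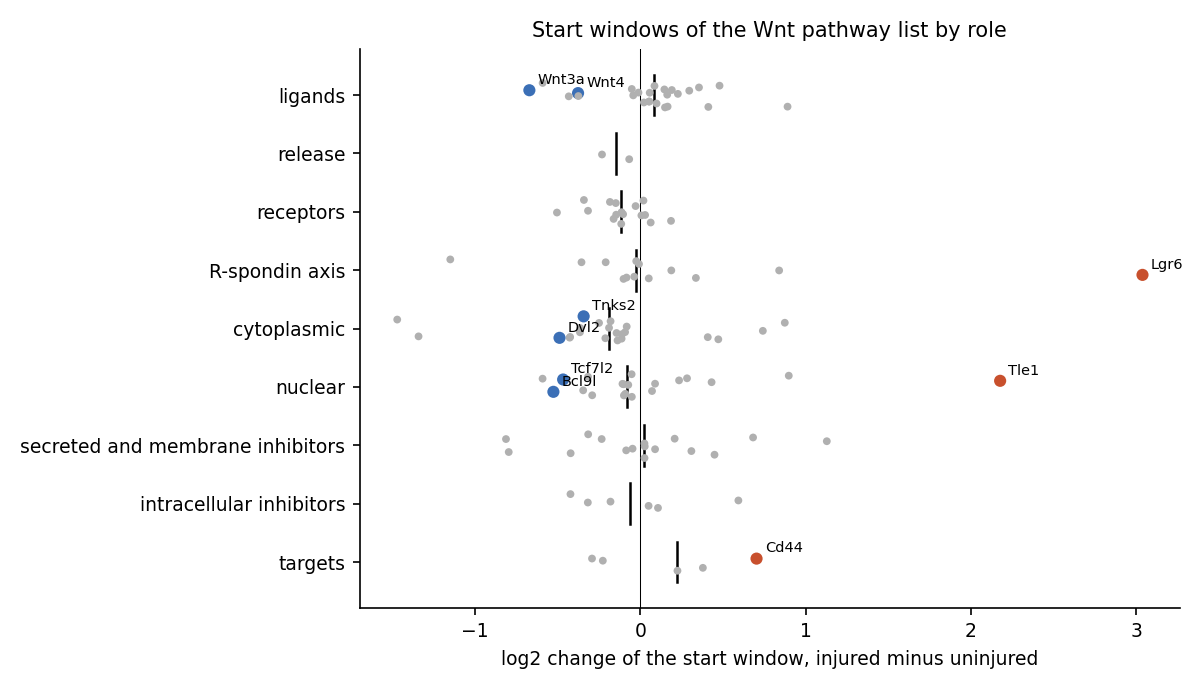
Log2 change after injury of the 126 tested start windows of the Wnt pathway list, 1 row per role, with called windows in red (3 higher) or blue (6 lower) and a black bar at each role's median. The release, receptor and both inhibitor rows hold no called window.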

How the data were processed

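The 6 single-nucleus ATAC-seq libraries, 3 per group, were read from the deposited fragment files, in which the authors give each fragment's position, its barcode and its count of read pairs. Reads were aligned to mm10 and processed with Cell Ranger 2.0.0, per the submitters' processing notes. Each fragment was counted once and gave 2 cut sites. Barcodes with 2000 or more fragments were kept and cut sites were summed per library in start windows and 500 bp tiles, with genes and starts from GENCODE on GRCm38. The deposited peak matrices were not used.

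Sums were tested with edgeR 4.0.16 (quasi-likelihood F-test, TMM factors, filterByExpr) over all start windows or all open tiles, with Benjamini-Hochberg adjustment over all of them and a call at an adjusted p under 0.05. DESeq2 1.42.0 was an alternative. Barcodes were clustered (Leiden, resolution 0.5) and named from fixed markers; the naming rule was set after the data were seen, and doublet calls were kept. Replicates are labelled biological, and p-values measure the spread between these libraries. On simulated counts for 24178 start windows the test recovered 61% of changes of 1 on the log2 scale and 80.5% of changes of 2. On 100000 tiles it recovered 2% and 26.5%. Each simulation changed 200 features by each size, a smaller share than was called in the data. The adjustment is then stricter, so these recovered shares may be too low for the data. Of the unchanged features 22 start windows and 4 tiles were called.

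The rule for names took every start window of the 10 genes, the most open tile of each locus, the 2 called stretches with the smallest p in each locus and direction, the called windows of the pathway list, and the 3 genes most like the member window with the smallest p. Further stretches, and Sp5, Ccnd1 and Myc, were named after their values were seen. Sequences over exons are not printed. The members and lists were chosen with earlier results of these data known. Centring printed sequences on the busiest 50 bp, leaving out repeated barcodes, counting clusters 2 and 9 as horizontal basal and leaving out the third libraries were chosen after seeing the data.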

Additional observations from a re-analysis of the deposited data

How the results depend on the processing

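Each share in brackets is that of all start windows, or all tiles, called in that direction under the same choice. Leaving out 1 library gave 0 to 2 lower member start windows, 1 to 3 higher and 0 to 9 lower windows of the pathway list (0.474% to 4.22% higher and 0.211% to 3.78% lower), and 8 to 50 higher and 2 to 20 lower member tiles (1.02% to 7.87% and 0.115% to 2.53%). The count of higher member start windows was 0 with 500 bp windows (2.59%). The 5′-most start alone gave 0 (2.01%) by design, since that fit leaves out the short start of Lgr6. It also leaves out the second start of Tle1 and the third of Bcl9l, both called in the list. Lower member start windows were 8 with factors from 10 kb bins (45.1%), 4 with total cut sites (28.6%), and 1 each with the 5′-most start (1.59%), with at least 20% of cut sites in open tiles (1.45%), without doublet calls (1.46%) and with clusters 2 and 9 as basal (2.68%). Higher windows of the list were 1 with the 5′-most start (2.01%), 9 in basal-like barcodes (12%) and 5 without the third libraries (6.00%). Lower ones were 14 with DESeq2 (3.52%), 69 with 10 kb bins (45.1%), 51 with total cut sites (28.6%), 12 without a filter (2.70%), 2 with the 5′-most start (1.59%), 3 with the 20% filter (1.45%), 18 in basal-like barcodes (9.30%), 10 with clusters 2 and 9 as basal (2.68%) and 15 without the third libraries (4.68%). Higher member tiles were 70 in basal-like barcodes (23.4%), 45 with clusters 2 and 9 as basal (10.5%) and 64 without the third libraries (11.8%). Lower ones were 41 with 10 kb bins (5.03%), 19 with total cut sites (2.48%), 51 in basal-like barcodes (15.4%), 18 with clusters 2 and 9 as basal (4.13%) and 34 without the third libraries (5.32%). The first starts of Wnt7b (-0.51) and Fzd6 (-0.48) took the other sign with 10 kb bins, which move the median of all start windows from 0.01 to -0.50. The cause of the other changes was not tested.

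In this paragraph a share in brackets is that of the members or of the list themselves. With the replicate number as a block, lower member start windows were 3 (17.6%). The list then had 5 higher (3.97%) and 20 lower windows (15.9%). Among all start windows 4.62% were higher and 7.01% lower. Member tiles were 34 higher (4.08%) and 18 lower (2.16%), against 5.66% and 2.75% of all tiles. The first start of Axin2 then had a log2 change of -0.32 (adjusted p = 0.0408). Deviations of same-numbered libraries correlated at 0.076, 0.189 and 0.245 across start windows. The numbers were not taken as pairs, since the first of these is under 0.1 and no label says that a number marks a shared litter, batch or day. As a hint from the data, 5 of 6 libraries correlated best with their own number, and the numbers go with age.

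On simulated counts 26.5% of changes of 2 on the log2 scale were recovered in tiles, against 80.5% in start windows. The common biological coefficient of variation was 0.367 in tiles and 0.175 in start windows. The simulations changed 200 features by each size, a smaller share than was called in the data.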
